A study of Homo sapiens with 6 samples.

Results

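The SCF ubiquitin ligases were examined through 68 genes of the 17918 in the deposited expression table. They comprised every gene whose symbol begins with FBXO, FBXL or FBXW and a digit, together with SKP1, SKP2, CUL1, RBX1, BTRC and CCNF. Of these, 3 encode the shared core (SKP1, CUL1 and RBX1) and 65 encode F-box proteins: 18 of the FBXL class with leucine-rich repeats, counting SKP2, 10 of the FBXW class with WD40 repeats, counting BTRC, and 37 of the FBXO class with other domains, counting CCNF. Total RNA was sequenced from KMS11, an established line grown from multiple myeloma, a plasma cell malignancy. CRIP1, which encodes a small LIM domain protein, was knocked down by short hairpin RNA (shRNA) in 3 libraries, and 3 control libraries received a scrambled shRNA. The control genotype is given as WT, and no further treatment was applied to either group. All 6 libraries share this 1 line. The labels give neither the number of hairpin sequences nor the origin of the replicates, so the p-values below reflect the spread between libraries alone, which may be technical.

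An SCF ligase joins ubiquitin to proteins and thereby marks many of them for the proteasome. CUL1 is the scaffold, RBX1 binds the ubiquitin-charged E2 enzyme at one end, and SKP1 at the other end holds an exchangeable F-box protein, which selects the substrate. Attachment of the small protein NEDD8 to CUL1 activates the ligase, the COP9 signalosome removes it, and CAND1 exchanges the F-box modules. In dividing cells these ligases set the levels of cyclins, CDK inhibitors and MYC, and in B lineage cells those of NF-kappaB inhibitors. Transcript levels alone were measured here, and neither ligase activity nor substrate protein.

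The 6 libraries held 16971454 to 18005318 estimated counts. The targeted gene CRIP1 was at 2791, 3327 and 3174 TPM (a level corrected for length and library size) in scramble replicates 1 to 3. It was at 127, 129 and 134 TPM in CRIP1 shRNA replicates 1 to 3, a 26.2-fold lower fitted level. Of the 9 plasma cell markers checked, SLAMF7 was close to 0 in both groups (0.0333 and 0.140 TPM), 5 fell and 3 rose. Their summed level was 8371 to 8811 TPM in scramble and 3792 to 4048 TPM in CRIP1 shRNA libraries. Most of the fall in this sum came from 1 gene, JCHAIN, whose mean went from 6443 to 1789 TPM. All 10 erythroid markers were called higher, and 9 of them, all but KLF1, had 0 counts in every scramble library. All 10 had enough counts to be tested only through the CRIP1 shRNA libraries, where they were high. Their calls are therefore no support for a rise. The erythroid sum was 0.150 to 0.230 TPM in scramble and 693 to 697 TPM in CRIP1 shRNA libraries. Of 5 epithelial markers 5 were called higher (sums of 10.3 to 13.3 and 84.0 to 90.1 TPM). So were 2 of 5 myeloid markers, LYZ and CD33 (0.480 to 0.710 and 6.60 to 7.32 TPM). The same limit holds for the calls of KRT18, KRT19, LYZ and CD33. No T cell marker of 4 had enough counts to be tested (0.310 to 0.430 and 1.31 to 1.99 TPM). The higher T cell sum came from CD3D alone, with 0 counts over the scramble libraries and 19 over the CRIP1 shRNA libraries. CD3E, CD3G and CD2, also with few counts, had lower mean TPM in the CRIP1 shRNA libraries. None of these marker sums overlapped between the groups, and their part in the results below was not tested. In such bulk libraries, fewer cells of a type and less RNA per cell cannot be told apart.

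The SCF genes moved in both directions, and about as often as genes in general. Of the 68 genes, 61 had enough counts to be tested, of which 26 rose, 20 fell and 15 did not pass an adjusted p of 0.05 by edgeR's quasi-likelihood test. Across all 12612 genes tested, 77.6% were called, 39.4% higher and 38.1% lower, against 75.4% of the tested SCF genes. The share of SCF genes called was therefore near the background. Their median log2 fold change (CRIP1 shRNA minus scramble) was 0.06, beside 0.01 for all genes, and single values ran from -1.27 to 3.36. The highest value was that of FBXO17, which had only 6 counts over the scramble libraries. At 1.5-fold or more, 12 rose and 6 fell (background 18.2% and 17.1%). FBXO17, counted among the 26 and the 12, had enough counts to be tested only through the CRIP1 shRNA libraries. Its call is therefore no support for a rise. FBXO2, counted among the 20 and the 6, had enough only through the scramble libraries, where it was high. Over all 12612 genes tested, the TPM values of the groups did not overlap for 78.5%, with CRIP1 shRNA above in 6081 and below in 3820. Among the SCF genes they did not overlap for 32 with CRIP1 shRNA above and 16 with CRIP1 shRNA below. On log2(TPM + 1), tested with limma, 31 rose and 16 fell, and the median of all genes stood at 0.12; with the GC trend of each library removed, 21 rose and 21 fell, and that median was -0.08. Genes that changed sign between these scalings are named below. By class, 7 FBXL genes rose and 5 fell of 17 tested, 5 FBXW genes rose and 1 fell of 8, and 14 FBXO genes rose and 11 fell of 33.

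**Figure D1:**
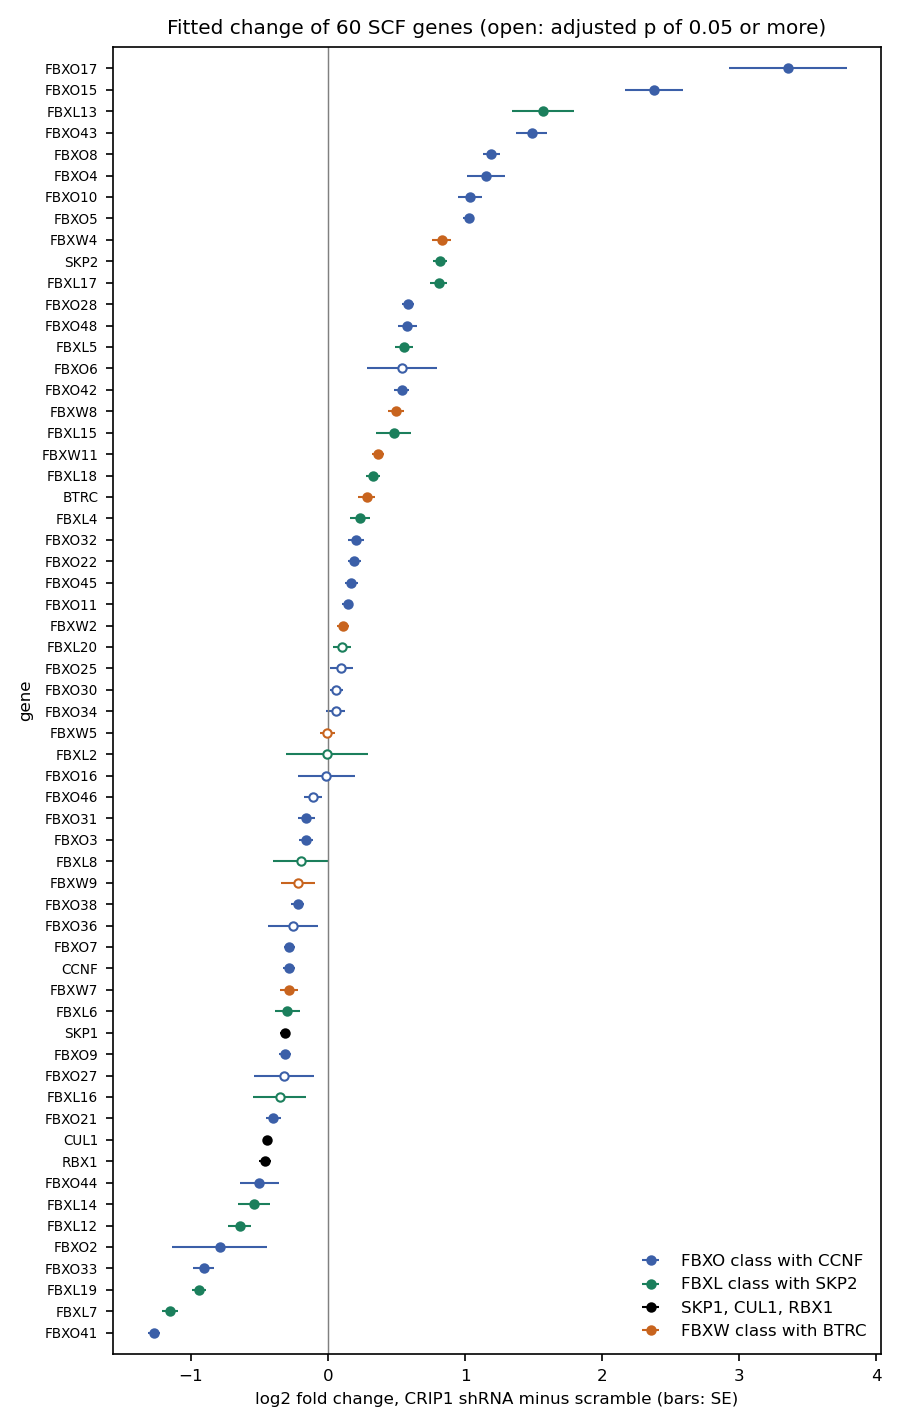
Fitted log2 fold change of 60 of the 61 tested SCF genes, CRIP1 shRNA minus scramble (x axis), 1 gene per row, with bars of 1 SE; filled points passed an adjusted p of 0.05 and colours give the class. The 3 black core genes all lie below 0, while each F-box class spreads to both sides, from FBXO41 at -1.27 to FBXO17 at 3.36. FBXO17 passed the count filter only through the CRIP1 shRNA libraries.

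All 3 genes of the shared core fell, each by less than 1.5-fold. CUL1, the scaffold (NCBI gene 8454), was at 239, 237 and 242 TPM in the scramble libraries and at 194, 185 and 199 TPM in the CRIP1 shRNA libraries, so the groups did not overlap. Its fitted log2 fold change was -0.44 (SE 0.03, adjusted p = 2.14e-10). The RING subunit RBX1 (gene 9978) was at 134, 135 and 132 TPM in scramble and at 105, 106 and 109 TPM after knockdown, again with no overlap (-0.46, SE 0.05, adjusted p = 1.01e-08). SKP1, the adaptor that every F-box protein binds (gene 6500), stood at 119, 112.5 and 116 TPM in scramble and at 103, 101 and 102 TPM after knockdown. Its log2 fold change was -0.31 (SE 0.04, adjusted p = 8.32e-08). These decreases passed the test under each of the 12 other settings and without each of the 6 libraries, with SKP1 reaching -0.49, CUL1 -0.56 and RBX1 -0.51 once the GC trend was removed.

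The summed TPM of the F-box genes was higher after knockdown, although single genes went both ways. Beside shares of 39.4% higher and 38.1% lower over all genes, 26 of the 58 tested rose and 17 fell. Their median log2 fold change was 0.08. Their levels summed to 1130, 1138 and 1147 TPM in scramble and to 1388, 1374 and 1394 TPM in the CRIP1 shRNA libraries, with no overlap. Set against SKP1, the summed F-box level was 9.82 ± 0.325 times the SKP1 level in scramble and 13.6 ± 0.132 times after knockdown (SD, n = 3 each). Set against CUL1 it was 4.76 ± 0.0468 and 7.18 ± 0.204 times (SD, n = 3 each). FBXO5 alone went from 7.63% ± 0.237 to 14.1% ± 0.269 of the F-box sum (SD, n = 3 each), or from a mean of 86.9 to 196 TPM. The TPM scale itself leaned upward, with a median of 0.12 over all genes on log2(TPM + 1). The F-box sums are of RNA and were not tested.

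**Figure D2:**
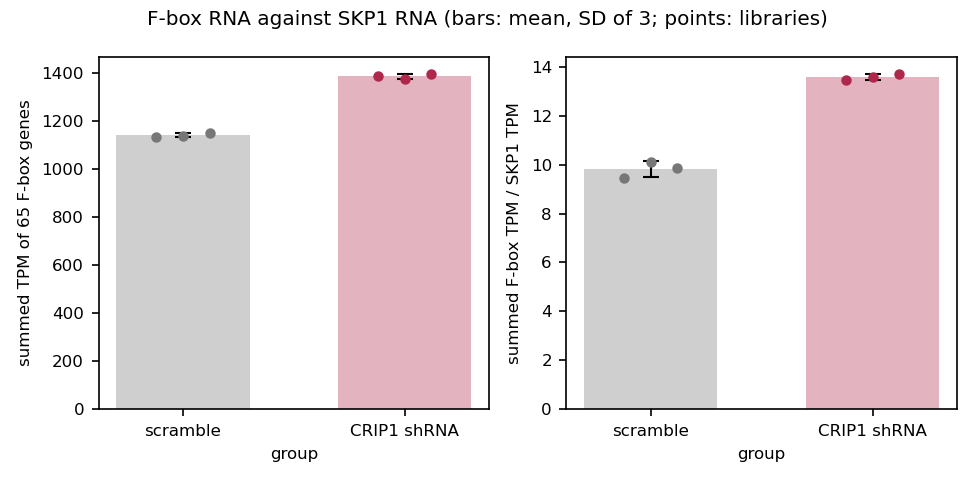
Summed TPM of the 65 F-box genes (left) and the same sum divided by SKP1 TPM (right) by group; bars are means of 3 libraries, whiskers 1 SD and points single libraries. The CRIP1 shRNA libraries lie at 1374 to 1394 TPM and the scramble libraries at 1130 to 1147 TPM, and the ratio is 13.6 against 9.82.

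KMS11 cells expressed most of the family. In scramble libraries 54 of 65 F-box genes averaged at least 1 TPM and 34 at least 10 TPM, with a median of 10.8 TPM, and after knockdown the numbers were 56, 36 and 11.5 TPM. FBXO7, linked to mitophagy and to inherited parkinsonism, was the most abundant in scramble at 137 ± 2.79 TPM. FBXO5 (86.9 ± 3.34 TPM), FBXO9 (72.8 ± 1.80 TPM), FBXW5 (63.0 ± 1.56 TPM) and FBXO11 (57.2 ± 1.91 TPM; SD, n = 3) followed, and these 5 genes held 36.6% of the F-box sum. No 2 neighbours among these 5 overlapped in their scramble values. After knockdown FBXO5 was first at 196 ± 5.12 TPM and FBXO7 second at 122 ± 2.63 TPM. FBXW4 moved from rank 13 to 6 and FBXO8 from 23 to 9, whereas FBXL19 moved from 12 to 27 and FBXO41 from 14 to 31.

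Receptors of the cell cycle engine changed in different directions. FBXO5 (EMI1; gene 26271) restrains the APC/C, a second cyclin-destroying ligase, through S and G2 phase. Its transcript was at 83.4, 87.2 and 90.0 TPM in scramble and at 196, 191 and 201 TPM in the CRIP1 shRNA libraries, so every knockdown value was above every scramble value by a wide margin. The fitted change was 2.04-fold (log2 fold change 1.03, SE 0.04, adjusted p = 3.35e-15). Its relative FBXO43 (EMI2), which holds the APC/C back in egg meiosis, was much rarer, at 2.33, 2.71 and 2.51 TPM in scramble and 7.67, 7.14 and 6.80 TPM after knockdown (1.49, SE 0.11).

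SKP2, which with CKS1B delivers the CDK inhibitor p27 for destruction, also rose. It was at 21.9, 21.3 and 22.0 TPM in scramble and at 37.9, 35.1 and 38.6 TPM after knockdown, again without overlap (0.82, SE 0.05, adjusted p = 1.03e-11). CCNF, cyclin F, which targets the ribonucleotide reductase subunit RRM2, was at 39.8, 38.2 and 40.1 TPM in scramble and at 34.6, 36.2 and 35.7 TPM after knockdown. Its groups lay close together but apart, and the log2 fold change was -0.29 (SE 0.04, adjusted p = 4.31e-06). The general set of 24 cell cycle genes was mixed, with 9 higher and 10 lower (median -0.05), and the 79.2% called was close to the 77.6% of all genes.

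The start regions of these genes are shown because FBXO5 and CCNF carry the same letters there yet moved in opposite directions. RefSeq windows from 250 bases before to 50 after the start (GRCh38.p14) matched 53 of the 68 genes, with 77 windows in all, since some genes have several starts. They were searched on both strands for CCAAT (the CCAAT box), TTTGAA (a form of the cell cycle homology region, CHR) and TTCCCGC (a core of E2F sites). The FBXO5 window is chr6:152982992-152983291 (minus strand), the CCNF window chr16:2429197-2429496 (plus strand) and the SKP2 window chr5:36151861-36152160 (plus strand). Capitals mark matches, read on the gene's strand, and ATTGG and TTCAAA are the reverse complements.
FBXO5: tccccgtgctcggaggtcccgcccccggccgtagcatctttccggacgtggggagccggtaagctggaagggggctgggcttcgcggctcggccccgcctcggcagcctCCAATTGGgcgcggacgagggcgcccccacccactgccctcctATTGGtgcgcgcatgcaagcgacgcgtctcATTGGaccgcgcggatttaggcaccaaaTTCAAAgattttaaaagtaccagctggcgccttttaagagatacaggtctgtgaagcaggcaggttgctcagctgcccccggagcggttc
CCNF: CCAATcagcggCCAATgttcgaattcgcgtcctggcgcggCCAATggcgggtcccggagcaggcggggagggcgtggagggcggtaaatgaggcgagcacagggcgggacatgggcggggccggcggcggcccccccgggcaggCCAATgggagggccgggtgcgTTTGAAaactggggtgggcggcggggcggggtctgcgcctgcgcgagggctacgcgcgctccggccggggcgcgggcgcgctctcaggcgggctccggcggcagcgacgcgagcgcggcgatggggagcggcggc
SKP2: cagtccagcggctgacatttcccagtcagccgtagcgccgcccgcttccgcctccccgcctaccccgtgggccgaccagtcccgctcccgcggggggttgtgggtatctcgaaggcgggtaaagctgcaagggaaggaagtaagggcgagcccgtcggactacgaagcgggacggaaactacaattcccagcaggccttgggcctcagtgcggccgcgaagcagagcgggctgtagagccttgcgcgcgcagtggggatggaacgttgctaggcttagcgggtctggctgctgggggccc
The FBXO5 and CCNF windows each held 4 CCAAT matches and 1 TTTGAA. A pair of the FBXO5 matches, on opposite strands, share letters in CCAATTGG. The SKP2 window and a second, upstream FBXO5 window held no match to any of the 3 motifs. Across all 35116 windows of the table, 34.6% held CCAAT, 15.2% TTTGAA, 6.55% TTCCCGC and 5.90% both CCAAT and TTTGAA. Of the 77 SCF windows, 23, 7, 8 and 4 did. The 4 with both belonged to FBXO5, which rose, and to CCNF, FBXW7 and FBXL14, which fell. A match describes letters only and shows no factor's binding.

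**Figure D3:**
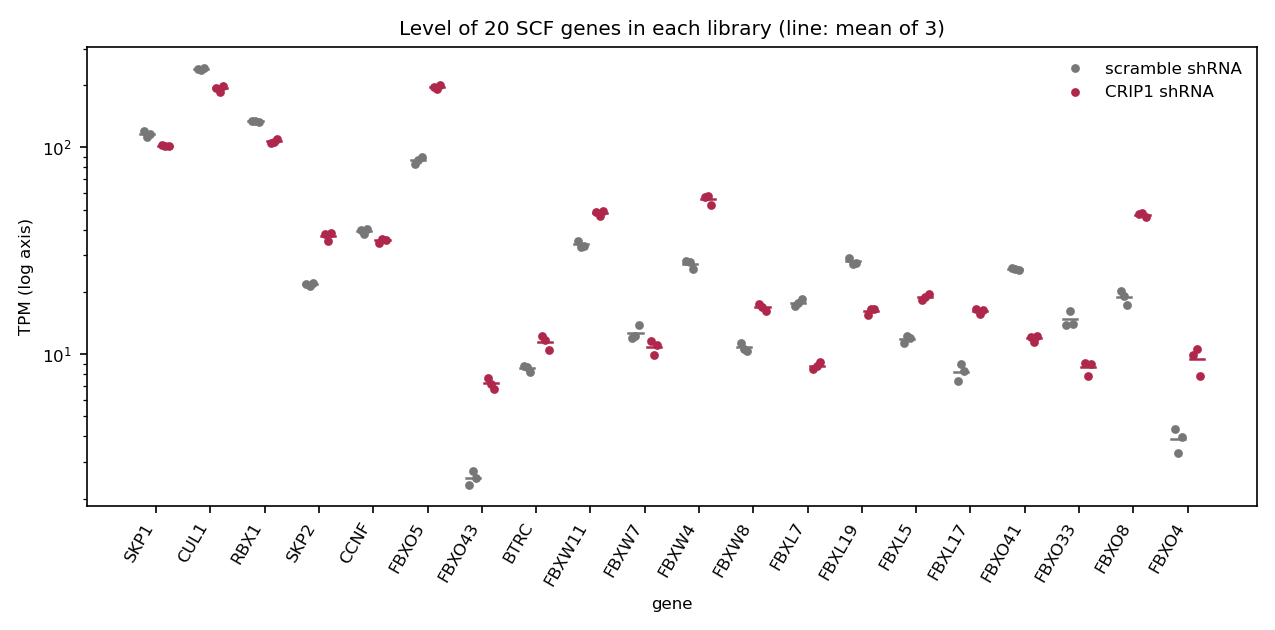
TPM of 20 SCF genes (x axis) in each of the 3 scramble (grey) and 3 CRIP1 shRNA libraries (red) on a log axis; lines are group means. The points of the 2 groups do not overlap for any of these genes, with CUL1 at 185 to 199 against 237 to 242 TPM and FBXO5 at 191 to 201 against 83.4 to 90.0 TPM. The genes shown are a selection that leaves out FBXO2 and FBXO44, whose groups overlapped. Of all genes tested, 78.5% did not overlap.

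In the FBXW class, whose best known receptors read phosphorylated degrons, 5 of the 10 members rose, 1 fell, 2 did not pass and 2 were too low to test. Over all genes tested 39.4% rose and 38.1% fell. The 75.0% of tested FBXW genes called was near the 77.6% of all genes. BTRC and FBXW11, the paired beta-TrCP proteins that degrade IkB and beta-catenin, rose together. BTRC was at 8.71, 8.63 and 8.20 TPM in scramble and at 12.3, 11.7 and 10.5 TPM after knockdown (0.28, SE 0.06, adjusted p = 3.79e-04). FBXW11 was at 35.3, 33.0 and 33.4 TPM and then at 48.5, 46.3 and 49.2 TPM (0.37, SE 0.04, adjusted p = 1.80e-07). FBXW11 thus remained the more abundant of the 2, at 3.98 ± 0.139 times the BTRC level in scramble and 4.199 ± 0.420 times after knockdown (SD, n = 3 each), a ratio whose libraries overlapped. FBXW7, which degrades cyclin E, MYC and NOTCH, was the 1 member of the class that fell. It was at 11.95, 12.19 and 13.79 TPM in scramble and at 11.6, 9.86 and 11.1 TPM after knockdown, groups that stood apart by a small margin (-0.29, SE 0.07, adjusted p = 4.86e-04).

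FBXW4 had the largest change of the class. Its values were 28.3, 27.8 and 25.9 TPM in scramble and 57.3, 58.1 and 52.7 TPM after knockdown (0.83, SE 0.07). FBXW8, the receptor that works with the cullin CUL7 instead of CUL1, went from 11.4, 10.6 and 10.4 TPM to 17.5, 16.9 and 16.2 TPM (0.49, SE 0.06). CUL7 itself rose from 6.42 ± 0.0721 to 11.2 ± 0.302 TPM (SD, n = 3 each; 0.61, SE 0.06). FBXW2 passed the test narrowly (0.11, SE 0.04, adjusted p = 0.0335) and was at -0.06 with the GC trend removed. Its call was lost without scramble replicate 2 or 3 or CRIP1 shRNA replicate 1 or 3, with the DESeq2 Wald test, with no filter and against a 1.2-fold change. FBXW5 (-0.005, adjusted p = 0.939) and FBXW9 (-0.22, adjusted p = 0.110) did not pass.

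In the FBXL class the largest decreases were those of FBXL7 and FBXL19. FBXL7, reported to target Aurora A and survivin, was at 17.02, 17.71 and 18.52 TPM in scramble and at 8.49, 8.72 and 9.17 TPM after knockdown (-1.16, SE 0.06). FBXL19, a CpG island binding protein related to KDM2A and KDM2B, was at 29.3, 27.4 and 27.6 TPM and then at 15.4, 16.5 and 16.5 TPM (-0.94, SE 0.05). In both genes the groups were far apart relative to their spread. FBXL12 went from 21.4, 19.7 and 18.3 TPM to 14.1, 14.3 and 13.3 TPM (-0.65, SE 0.09). FBXL14, a receptor for SNAI1, went from 9.07, 9.11 and 8.58 TPM to 5.79, 5.75 and 6.74 TPM (-0.54, SE 0.12). FBXL6 fell as well (-0.30, SE 0.09, adjusted p = 6.77e-03).

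Beside SKP2, 6 genes of this class rose, where 39.4% of all genes tested did. FBXL17, which removes mispaired BTB domain proteins, was at 7.41, 8.95 and 8.29 TPM in scramble and at 16.6, 15.6 and 16.3 TPM after knockdown (0.81, SE 0.06). FBXL5, the iron sensor that degrades the iron regulatory protein IREB2, went from 11.27, 12.29 and 11.97 TPM to 18.2, 18.8 and 19.5 TPM (0.56, SE 0.07), while the IREB2 transcript itself fell (-0.30, SE 0.04). FBXL13 had the largest fitted increase of the class but was rare, at 0.530, 0.520 and 0.350 TPM in scramble and 1.52, 1.73 and 2.12 TPM after knockdown (1.57, SE 0.23). FBXL15 (0.48), FBXL18 (0.33) and FBXL4 (0.23, adjusted p = 8.11e-03), a mitochondrial receptor, also rose. FBXL4 was at -0.04 with the GC trend removed and missed the threshold without scramble replicate 2. FBXL20, FBXL16, FBXL8 and FBXL2 did not pass (adjusted p = 0.182, 0.1002, 0.385 and 0.983).

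Among the FBXO genes the strongest decrease of the whole family was in FBXO41, known from neurons. It was at 26.2, 25.8 and 25.6 TPM in scramble and at 12.04, 11.47 and 12.19 TPM after knockdown (-1.27, SE 0.05, adjusted p = 1.19e-15). FBXO33 was at 13.9, 16.2 and 14.0 TPM and then at 9.10, 7.83 and 8.93 TPM (-0.91, SE 0.08). Both genes showed no overlap between groups. The abundant receptors FBXO7 (-0.28, SE 0.04) and FBXO9, which in myeloma cells was linked to mTOR complex turnover (-0.32, SE 0.04), fell slightly, as did FBXO21 (-0.40, SE 0.06) and FBXO38, a receptor for PD-1 (-0.22, SE 0.05). The FBXO38 call was lost on both log2 TPM scales and against a 1.2-fold change. FBXO31 fell by 0.16 on the log2 scale (SE 0.06, adjusted p = 0.0214), but its TPM values overlapped between groups, and it did not pass under 8 of the 12 other settings.

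The larger FBXO increases included FBXO8, which carries a Sec7 domain. It was at 20.2, 19.0 and 17.3 TPM in scramble and at 47.64, 48.05 and 46.15 TPM after knockdown (1.19, SE 0.06, adjusted p = 6.61e-13). An exon of CEP44, on the opposite strand, overlaps an exon of FBXO8 in GENCODE 29, and CEP44 rose too (0.70, adjusted p = 9.49e-10). FBXO4 was at 4.33, 3.32 and 3.99 TPM and then at 9.91, 10.6 and 7.83 TPM (1.15, SE 0.14). FBXO15, described in embryonic stem cells, went from 0.910, 0.600 and 0.780 TPM to 4.05, 4.91 and 5.27 TPM (2.38, SE 0.21). All of these groups stood apart. FBXO10, reported to degrade BCL2, rose from 3.37 ± 0.300 to 7.65 ± 0.171 TPM (SD, n = 3; 1.04, SE 0.09), while its more abundant relative FBXO11, a BCL6 receptor, rose by 0.14 (SE 0.04) and was at -0.06 with the GC trend removed. Exons of FBXO11 overlap those of MSH6 on the opposite strand. MSH6 was more abundant, at a mean of 87.0 TPM in scramble, and did not pass (adjusted p = 0.110).

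Further increases were found in FBXO28 (0.59, SE 0.05), FBXO48 (0.58, SE 0.07) and FBXO42 (0.54, SE 0.06), and smaller ones in FBXO32, known as atrogin-1 of muscle (0.20), FBXO22 (0.19) and FBXO45 (0.17). Of these, FBXO22 was at -0.05 with the GC trend removed, where FBXO32 and FBXO45 no longer passed (0.07 and 0.01). Exons of FBXO45 overlap those of WDR53 on the opposite strand, which was more abundant and also rose (0.47, adjusted p = 3.31e-07). FBXO16, FBXO25, FBXO27, FBXO30, FBXO34, FBXO36 and FBXO46 did not pass, with log2 fold changes of -0.32 to 0.10. FBXO30 depended on the scaling: it passed as higher with upper-quartile scaling, library totals, FPKM and both TPM scales, and as lower with the GC trend removed.

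FBXO2 and its relatives FBXO6, FBXO17, FBXO27 and FBXO44, a group that includes receptors for glycoproteins, were all low and did not move together. FBXO44 was the most abundant, at 5.69, 4.45 and 6.06 TPM in scramble and 4.42, 4.24 and 5.22 TPM after knockdown, values that overlapped although the counts passed the test (-0.50, SE 0.14, adjusted p = 3.11e-03). With limma on FPKM or TPM it did not pass. FBXO2 was at 1.69, 1.67 and 1.21 TPM and then at 1.41, 0.870 and 0.610 TPM, also overlapping (-0.79, SE 0.35, adjusted p = 0.0443). That call was lost without scramble replicate 1 or 2 and without CRIP1 shRNA replicate 2 or 3. It was also lost with upper-quartile scaling, library totals, the DESeq2 Wald test, no filter and the 1.2-fold test. FBXO2 and FBXO44 have overlapping exons on opposite strands, and since no strand setting is given their reads cannot be told apart there. FBXO6 did not pass (0.54, adjusted p = 0.0600), but it passed as higher with upper-quartile scaling, library totals, both log2 TPM scales or the GC trend removed, and without CRIP1 shRNA replicate 1. FBXO27 did not pass (-0.32, adjusted p = 0.186), though it did as lower without scramble replicate 1. FBXO17 had 6 counts over the scramble libraries and 71 over the CRIP1 shRNA libraries. The ratio by library totals was 11.5 (95% exact binomial interval 5.02 to 32.3, counting error only). It was called higher, but it passed the count filter only through the CRIP1 shRNA libraries, where it was high. That call is therefore no support for a rise. FBXO2 passed the filter only through the scramble libraries, where it was high.

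The 7 genes too low to test were FBXL22, FBXO24, FBXO39, FBXO40, FBXO47, FBXW10 and FBXW12. FBXO47 had 0 counts in all 6 libraries, and FBXW10 and FBXW12 had 0 counts over the scramble libraries and 3 and 1 over the CRIP1 shRNA libraries. FBXO39 had 2 and 19 counts, a ratio of 9.21 (95% exact binomial interval 2.22 to 81.5). FBXO24 was at 0.310, 0.180 and 0.220 TPM in scramble and 0.600, 0.520 and 0.760 TPM after knockdown.

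Some SCF genes lie beside one another, and such neighbours did not change alike throughout (GRCh38, GENCODE 29). On chromosome 1, FBXO2 (11637018 to 11655785), FBXO44 (11654375 to 11663327) and FBXO6 (11664124 to 11674354) form a cluster whose log2 fold changes were -0.79, -0.50 and 0.54. On chromosome 10, BTRC (101354033 to 101557321) and FBXW4 (101610664 to 101695295) are 53342 bases apart, and both rose. On chromosome 12, FBXW8 (116910956 to 117031148) rose while FBXO21 (117141988 to 117190531) fell, with 110839 bases between them. On chromosome 19, FBXO17 and FBXO27 are 14803 bases apart. FBXO27 did not pass, and the call of FBXO17 is, as given above, no support for a rise. Of 13 pairs of F-box genes listed for comparison, 5 had both members called, of which 4 pairs moved in the same direction. With 39.4% of all genes higher and 38.1% lower, agreement in so few pairs is common, and it was not tested. The 4 pairs were BTRC with FBXW11, FBXO5 with FBXO43, FBXO10 with FBXO11 and FBXO7 with FBXO9. The exception was FBXL7, lower, with FBXL13, higher.

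Genes that switch the ligase on and off were mixed as well. Of 21 genes of NEDD8 conjugation and the COP9 signalosome, 5 rose and 8 fell (median -0.07), beside 39.4% and 38.1% of all genes. With the GC trend removed 14 fell. NEDD8 had the smallest adjusted p of the set, falling from 403 ± 11.9 to 257 ± 21.1 TPM (SD, n = 3 each; -0.79, SE 0.05, adjusted p = 1.03e-11). In the signalosome, GPS1 fell (-0.47, SE 0.05) while COPS8 rose (0.44, SE 0.04). Among 18 E2 enzymes and SCF cofactors, 4 rose and 9 fell (median -0.14), or 15 fell with the GC trend removed and 5 on log2(TPM + 1). CAND1, the exchange factor, fell (-0.31, SE 0.03), and so did UBE2G2 (-0.40, SE 0.04), while ARIH1, a ligase that primes SCF substrates with a first ubiquitin, rose (0.42, SE 0.04). Of 12 other cullin genes and their partners, 3 rose and 6 fell (median -0.04), against the same shares of all genes. The number that rose was 6 with library totals and 5 with limma on FPKM or TPM. DDB1, the adaptor of CUL4 ligases, fell from 246 ± 7.82 to 100.3 ± 2.27 TPM (SD, n = 3 each; -1.43, SE 0.04), and CUL9 rose (0.55, SE 0.05). Of 7 F-box genes with other symbols 4 were tested, of which the histone demethylase KDM2A fell (-0.45, SE 0.04) and TSPAN17 rose (0.18, SE 0.06, adjusted p = 0.0118).

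Transcripts listed for SCF substrates rose more often than they fell. Of 59 tested, 30 rose and 19 fell, with a median of 0.18, against 39.4% and 38.1% of all genes, a description and not a test of the list. Among the 30, CCND1 had enough counts to be tested only through the CRIP1 shRNA libraries, where it was high. Its call is therefore no support for a rise. The 30 also include CDH1 as the gene of E-cadherin (gene 999), also counted among the epithelial markers. The APC/C activator of the same name is a different gene, so the CDH1 entry is not read here as a substrate that rose. The 3 with the smallest adjusted p were CCNE2, PDCD4 and RRM2, all higher. CCNE2, an FBXW7 substrate, rose from 53.4 ± 1.79 to 176 ± 12.2 TPM (1.58, SE 0.05). PDCD4, a beta-TrCP substrate, rose from 63.5 ± 0.672 to 191 ± 9.70 TPM (1.45, SE 0.04). RRM2, the cyclin F substrate, rose from 364 ± 14.2 to 900.3 ± 0.966 TPM (SD, n = 3 each; 1.17, SE 0.03). CCNE1 (0.33, SE 0.07), MCL1 (0.44, SE 0.03) and MYC (0.18, SE 0.04), substrates of FBXW7 among other receptors, rose, and CDKN1B, which encodes p27, fell (-0.36, SE 0.03). Protein stability, which SCF ligases act on, was not measured.

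Base composition varied with the direction of change. The longest coding transcript of the SCF genes that rose had a median GC content of 42.7% (26 genes), and of those that fell 52.9% (20 genes). Over all genes the medians were 46.0% (higher) and 50.9% (lower). Across the 61 tested SCF genes, Pearson's r between GC content and log2 fold change was -0.24 and Spearman's rho -0.36, and across 12546 genes they were -0.06 and -0.16, all measured in the same 6 libraries. With the GC trend of each library removed, 39 of the 46 SCF calls were kept, 3 were lost, and FBXL4, FBXO11, FBXO22 and FBXW2 changed sign without passing the test.

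**Figure D4:**
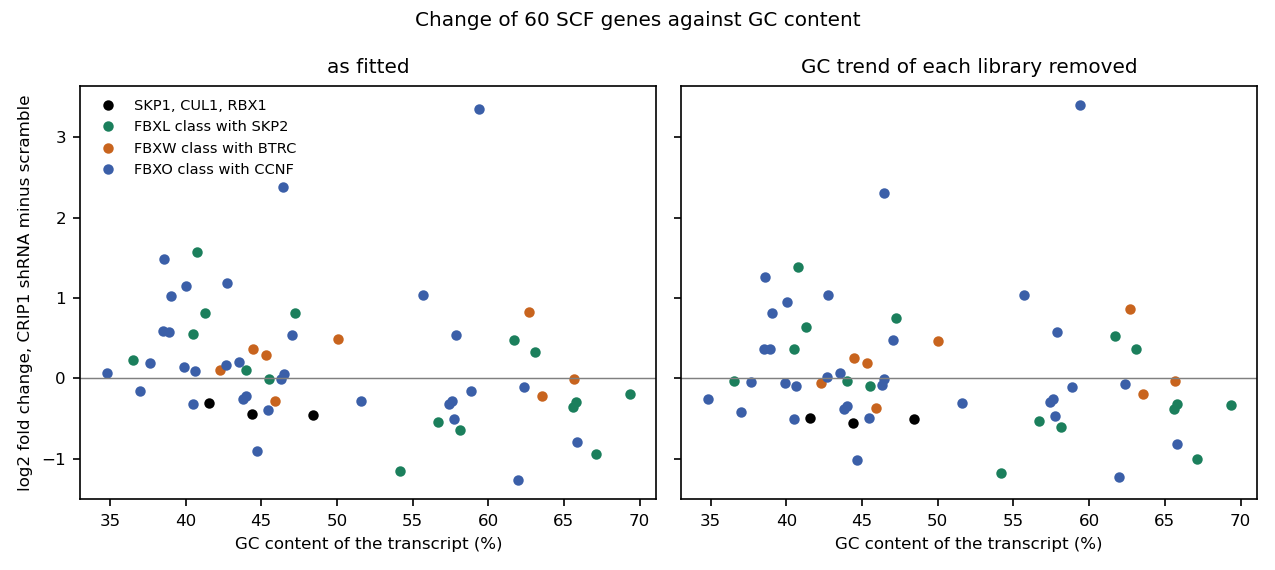
Log2 fold change of 60 of the 61 tested SCF genes (y axis) against GC content of the transcript in percent (x axis), as fitted (left) and with the GC trend of each library removed (right); colours give the class. In both panels the core genes lie below 0, and FBXL7, FBXO41 and FBXL19, with GC contents of 54.2%, 61.9% and 67.1%, lie at -1.16, -1.27 and -0.94 on the left and at -1.18, -1.23 and -1.01 on the right.

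The deposited values also give the effective length that the authors' quantification assigned to each gene in each library, as counts divided by FPKM and library total. This length moves when the estimated mix of isoforms moves, and it was read only where FPKM was at least 1 in all libraries. Of 52 SCF genes with such a value, 38 differed by at most 0.02 on the log2 scale between groups and 7 by over 0.1, where 5.78% of 10139 genes exceeded 0.1. SKP2 was among the 7, with implied lengths of 2535, 2618 and 2642 bases in scramble and 3004, 3006 and 2800 bases after knockdown. FBXO25 went from 1724, 1744 and 1692 bases to 2152, 1974 and 2138 bases, and FBXL14 was longer after knockdown too (0.14 on the log2 scale). FBXO3 went the other way, from 2980, 3122 and 3076 bases to 2739, 2674 and 2811 bases, and FBXO22 from 2364, 2454 and 2399 bases to 2264, 2130 and 2222 bases. In these 5 genes the groups did not overlap, whereas those of FBXO43 and FBXO44 did.

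For FBXO3, counts and TPM gave opposite directions. Its counts were 692, 724 and 701 in scramble and 664, 704 and 709 after knockdown, and edgeR called it lower (-0.16, SE 0.05, adjusted p = 8.91e-03). Its TPM values were 23.3, 23.0 and 23.2 in scramble and 24.4, 25.9 and 25.9 after knockdown, and limma on log2(TPM + 1) called it higher (0.13, adjusted p = 0.0273). No isoform values were used here, so which transcripts differ was not tested.

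**Figure D5:**
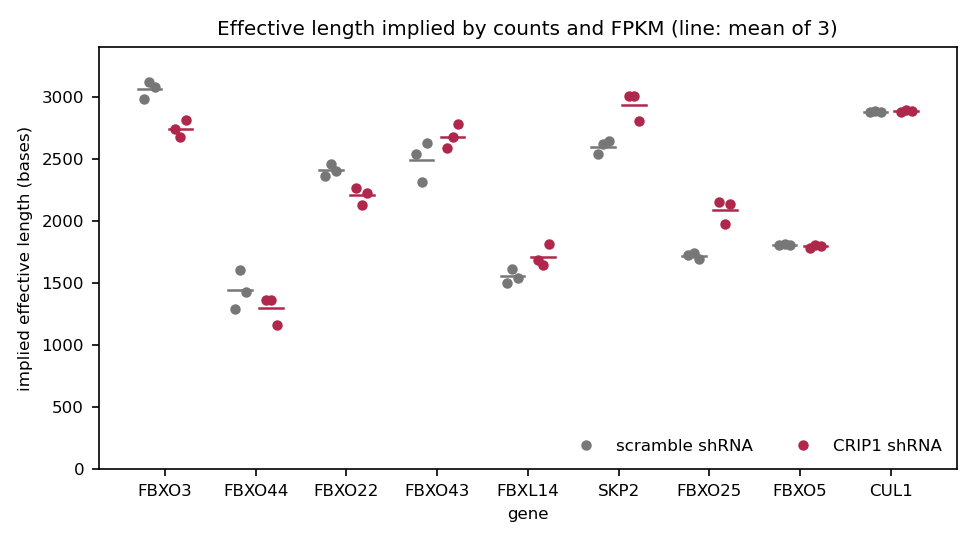
Effective length in bases (y axis) implied by counts and FPKM in each library for the 7 SCF genes with a shift of over 0.1 on the log2 scale, and for FBXO5 and CUL1 as genes without one; lines are group means of 3 libraries. SKP2 lies at 2800 to 3006 bases after knockdown against 2535 to 2642 bases in scramble, and FBXO3 at 2674 to 2811 against 2980 to 3122 bases.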

How the data were processed

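RNA sequencing of KMS11 cells gave 3 libraries with an shRNA against CRIP1 and 3 with a scrambled shRNA, grouped by sample title. The table the authors deposited gives estimated counts (expected counts, not all whole), FPKM (fragments scaled for gene length and library total) and TPM (also scaled to the same sum per library), per the file headers. RSEM 1.2.8, Bowtie2 2.2.5, HISAT2 2.1.0 and the build GRCh38.p13 are listed, without roles, in the submitters' processing notes; the annotation and strand setting are not given in the sources used here. By GENCODE 29, 28 of the 68 genes share exon bases with another gene. Reads of related F-box genes may be shared. The values of 1 tested gene, which counts, sums and medians include, are not reported here.

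The whole table, rounded to integers, went through edgeR 4.0.16 (R 4.3.3): genes were kept by filterByExpr (min.count 10), scaled by TMM, and fitted by quasi-likelihood with group as the only term. Benjamini-Hochberg adjustment covered 12612 genes at 0.05. Fold changes are CRIP1 shRNA minus scramble, and each SE was derived as |log2 fold change| over √F. Library totals of 16971454 to 18005318 counts limit precision for rare genes. Tested on simulated data of 12454 genes, recovery was 56 of 67 at a 1.25-fold change, 65 of 67 at 1.5-fold and 66 of 66 at 2-fold. The false calls numbered 9. Only these few genes were changed, in both directions alike, and all had a mean of at least 50 counts. In the real data 77.6% of genes were called. The recovery and the false calls therefore do not carry over to this comparison, nor to rarer genes. With 3 libraries a group, an exact permutation test of 1 gene cannot go below p = 0.1 and was not used.

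The members and lists were chosen with earlier results of these data known, so list counts are descriptions. Genes given by library were the core, SKP2, BTRC, FBXW11, FBXW7, CCNF and FBXO5, and in each class the 4 largest called increases and 4 largest decreases with a mean of at least 1 TPM; from other lists, the 3 called genes of smallest adjusted p, with MYC, MCL1, CCNE1 and CDKN1B. FBXO3, FBXO10, FBXO11, FBXO17, FBXO22, FBXO24, FBXO25, FBXO31, FBXO39 and IREB2 were described after their values were seen, as was the implied length. The 12 other settings were the replicate block, DESeq2 1.42.0 size factors and its Wald test, upper-quartile scaling, library totals, no filter, at least 50 counts in 3 libraries, limma 3.58.1 on log2(FPKM + 1), log2(TPM + 1) and log2(TPM + 0.1) with values of at least 1 in 3 libraries, a test against a 1.2-fold change, and a loess GC offset (span 0.5), which also recentres each library. Each library was also left out in turn. GC content was matched for 99.5% of the tested genes.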

Additional observations from a re-analysis of the deposited data

How the results depend on the processing

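Of 1063 values for 60 single SCF genes under the other settings and with a library left out, 953 kept direction and side of the threshold, 50 lost the call, 21 gained one and 39 changed sign; the causes were not tested. Replicate numbers did not pair the libraries (correlations of same-numbered deviations 0.05, -0.01 and -0.01), and with the replicate block the counts stayed at 26 higher and 20 lower with all 46 calls kept. Without 1 library, 24 to 29 SCF genes rose and 19 to 21 fell, and the calls lost were among FBXL4, FBXO2, FBXO31 and FBXW2. Against a 1.2-fold change 11 fell, and so did 5 neddylation genes, 4 E2 enzymes and cofactors (1 rose) and 3 other cullin genes; no F-box gene with another symbol rose (0), nor with the DESeq2 Wald test (0). With the GC trend removed 14 neddylation genes, 15 E2 enzymes and cofactors and 2 F-box genes with other symbols fell. On both log2 TPM scales 5 E2 enzymes and cofactors fell and 5 other cullin genes rose, as on log2(FPKM + 1) (5); with library totals 6 rose. Without 1 library, 0 to 1 F-box genes with other symbols rose and 1 to 2 fell.

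Sign changes with the GC trend removed were FBXL20 -0.029, FBXL4 -0.039, FBXO11 -0.057, FBXO22 -0.053, FBXO25 -0.094, FBXO34 -0.012, FBXW2 -0.057 and FBXO30 -0.25, the last called lower (adjusted p = 3.63e-06) but higher under 5 other settings. With upper-quartile scaling and library totals they were FBXL2 0.035 and 0.081, FBXO16 0.031 and 0.077, and FBXW5 0.038 and 0.084. On log2(FPKM + 1), log2(TPM + 1) and log2(TPM + 0.1) they were FBXO16 0.086, 0.14 and 0.17, FBXO25 -0.087, -0.046 and -0.048, FBXO3 0.080, 0.13 and 0.13, and FBXW5 0.078, 0.12 and 0.13; FBXO46 was at 0.018 and 0.019 on the TPM scales. FBXW5 was at 0.0086 with at least 50 counts. Without 1 library, FBXL2 ran from -0.17 to 0.11, FBXO16 from -0.21 to 0.28, FBXO34 from -0.0050 to 0.10 and FBXW5 from -0.070 to 0.058. Calls gained elsewhere were FBXL20 (higher) with library totals, on log2(TPM + 1) and without CRIP1 shRNA replicate 2, FBXO34 (higher) on both TPM scales, FBXL16 and FBXW9 (lower) without scramble replicate 1, and FBXL16 (lower) and FBXO25 (higher) without CRIP1 shRNA replicate 2. The FBXL6 call was lost with the DESeq2 Wald test. Depth limits the rarest genes: the lowest tested gene had 75 counts over 6 libraries.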
